A study of Mus musculus with 6 samples.

Results

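The alpha and mu glutathione S-transferases were examined in RNA-sequencing counts of mouse embryonic intestinal epithelium. The family was taken by gene symbol as *Gsta1*, *Gsta2*, *Gsta3* and *Gsta4* of the alpha class and *Gstm1*, *Gstm2*, *Gstm3*, *Gstm4*, *Gstm5* and *Gstm6* of the mu class. These are 10 of the 23366 genes listed in the count files. The family was chosen with the contrast of the 2 genotypes in these libraries already known, so the genotype differences of its members are given as a description and without p-values. Whether a member met the thresholds applied to all genes, which include an adjusted p, is given as a label and not as a test.

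Glutathione S-transferases are cytosolic enzymes that join the tripeptide glutathione to reactive, mostly fat-soluble compounds and so make them easier to export from the cell. The alpha and mu classes are encoded by clusters of recently duplicated genes and are abundant in liver and intestine, where the epithelium meets compounds from food and from lipid peroxidation. GSTA4 stands apart within the alpha class by its high activity on 4-hydroxynonenal, an aldehyde formed when polyunsaturated fatty acids are oxidised.

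All 6 libraries came from the small intestine of untreated mouse embryos at embryonic day 13.5, and each was made from 500 living EpCAM+ cells, EpCAM being a surface protein of epithelial cells. In 3 libraries the embryos were Shh-cre-egfp:Tcf7l1 lox/lox, referred to as mutant. Their Cre recombinase is driven by the *Shh* locus, which is active in the gut epithelium, and removes the floxed exon 6 of *Tcf7l1*, a gene for a transcription factor of the WNT pathway. The other 3 libraries came from wild type embryos, and none of the libraries is labelled as carrying Cre without the floxed alleles, so effects of the Cre allele and of *Tcf7l1* loss cannot be told apart. The comparison asks which transcripts differ in the epithelium once *Tcf7l1* is deleted.

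The libraries held between 18216537 and 20397278 counts. *Tcf7l1* fell from 438 ± 64.1 normalized counts in wild type to 49.1 ± 21.1 in mutant (SD, n = 3), with a log2 fold change of -3.16 (SE 0.26, adjusted p = 4.2e-07 by the quasi-likelihood test of edgeR, adjusted after Benjamini and Hochberg). *Shh*, whose locus drives the Cre, was also lower, at 481 ± 65.8 in wild type and 198 ± 22.6 in mutant (-1.28, SE 0.17, adjusted p = 6.1e-05 in edgeR's test). The part of this second difference in the results was not tested. *Xist* had 0 counts in every wild type library and at least 229 in every mutant library, and the 4 Y-linked genes looked up had 0 counts in every mutant library, so sex and genotype cannot be told apart. The strain background and litter of the embryos are not given in the sources used here, and a difference in background between the groups, which could bear on the largest values, *Gsta4* included, was not tested. Of 12501 genes tested, 348 (2.78%) were called higher in mutant and 729 (5.83%) lower, 8.62% in either direction. A call required an adjusted p under 0.01, a log2 fold change of at least 0.5 in either direction and 50 or more normalized counts on average. Of the tested epithelial markers, 3 of 9 were lower in mutant with sums of 174121 to 186727 for wild type and 173662 to 177427 for mutant, and 6 of 13 enterocyte markers were higher. Of the tested genes on a hepatocyte list, 3 of 5 were lower (*Serpina1a*, *Serpina1b* and *Fgb*), their list summed to between 5750 and 6874 normalized counts in wild type and to between 3497 and 3893 in mutant, and *Alb* had at most 6 counts in any library while *Ahsg* had 0. Of the gastric list, 2 of 7 tested genes were lower, and its sum lay between 982 and 1212 in wild type and between 257 and 282 in mutant. The part of these markers in the results on glutathione S-transferases was not tested. As each library is a bulk sample, fewer cells of a type and less RNA per cell cannot be told apart.

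Because members of a class are close copies, how far the reads can be assigned decides which members can be read singly. The first 84 bases of the coding sequence, equal in length to a sequencing read, are shown for the alpha class as the reference sequence of build mm9 gives them, read 5′ to 3′ on the coding strand. Capitals mark the bases that differ from *Gsta1*.
Gsta1: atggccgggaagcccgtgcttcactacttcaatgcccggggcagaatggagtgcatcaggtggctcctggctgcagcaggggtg
Gsta2: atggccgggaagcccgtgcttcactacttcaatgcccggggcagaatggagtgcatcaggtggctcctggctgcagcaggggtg
Gsta3: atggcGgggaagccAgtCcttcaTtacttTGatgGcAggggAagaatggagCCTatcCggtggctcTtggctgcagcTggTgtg
Gsta4: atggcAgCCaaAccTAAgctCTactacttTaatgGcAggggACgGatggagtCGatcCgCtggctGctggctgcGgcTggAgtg
These stretches lie at chr9:78080047-78080130 for *Gsta1*, chr9:78189640-78189723 on the minus strand for *Gsta2*, chr1:21239853-21239936 for *Gsta3* and chr9:78046097-78046180 for *Gsta4*. *Gsta1* and *Gsta2* were identical over this stretch, whereas 16 bases differed in *Gsta3* and 23 in *Gsta4*. Over the whole coding sequence *Gsta2* matched *Gsta1* at 97.9% of aligned bases, and *Gsta4* matched the other 3 alpha genes at between 66.2% and 66.9%.

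The mu class is shown in the same way, with capitals at bases that differ from *Gstm1*, for *Gstm6* and the 3 genes closest to it in coding sequence.
Gstm1: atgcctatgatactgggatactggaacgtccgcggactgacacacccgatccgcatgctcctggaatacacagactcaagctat
Gstm2: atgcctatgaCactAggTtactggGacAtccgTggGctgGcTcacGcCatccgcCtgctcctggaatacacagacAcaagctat
Gstm3: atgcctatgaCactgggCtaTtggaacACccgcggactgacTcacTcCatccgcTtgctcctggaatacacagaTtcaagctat
Gstm6: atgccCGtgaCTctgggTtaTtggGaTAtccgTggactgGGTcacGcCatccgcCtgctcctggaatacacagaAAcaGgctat
Each of these stretches crosses from one coding exon into the next on the minus strand of chromosome 3, at chr3:107820297-107820693 for *Gstm1*, chr3:107788980-107789311 for *Gstm2*, chr3:107771709-107772058 for *Gstm3* and chr3:107746191-107746551 for *Gstm6*. The number of bases that differ from *Gstm1* was 13 in *Gstm2*, 10 in *Gstm3* and 19 in *Gstm6*. The coding sequence of *Gstm6* matched that of *Gstm2* at 86.3% and that of *Gstm3* at 84.6% of aligned bases, and *Gstm1* and *Gstm3* matched at 89.5%.

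For each gene, every 84-base window of one transcript was searched for in the mm9 genome and in all protein-coding transcripts. Windows of *Gsta3*, *Gsta4*, *Gstm4* and *Gstm5* were found nowhere else with up to 2 mismatches (100% unique). *Gstm6* was nearly as distinct, with 93.9% of windows unique, and 5.75% of its windows were also found in *Gstm3*. *Gstm1*, *Gstm2* and *Gstm3* had 43.7%, 34.4% and 57.3% of windows unique at this tolerance, and between 70.9% and 86.2% when only identical copies were counted. At up to 2 mismatches, 56.3%, 65.6% and 38.4% of their windows were found elsewhere in the genome. In protein-coding transcripts of other genes the shares were 21.7%, 3.36% and 20.6%. Much of the shared sequence, most clearly for *Gstm2*, therefore lies outside the transcripts of other members. *Gsta1* had 1.26% unique windows, with 98.2% shared with the annotated gene *Gm3776*, and *Gsta2* had 8.51%, with 75.1% shared with *Gm10639*. Counting identical copies only, 15.0% of *Gsta1* windows and 58.6% of *Gsta2* windows were unique. As the authors kept only reads with a single mapping place, reads from shared windows can be lost, and the counts of *Gsta1* and *Gsta2* are the least certain of the family.

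**Figure D1:**
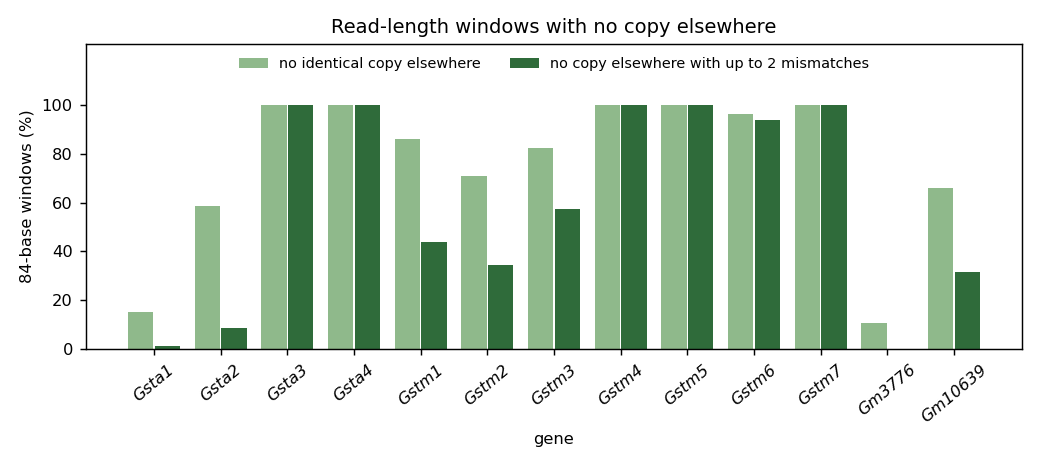
Share of 84-base windows (y axis, %) of one transcript of each gene (x axis) that had no copy elsewhere in the genome or in other genes' transcripts, counting identical copies only (light bars) or copies with up to 2 mismatches (dark bars). *Gsta3*, *Gsta4*, *Gstm4*, *Gstm5* and the related *Gstm7* reach 100% on both counts and *Gstm6* 93.9% on the stricter, while *Gsta1* and its copy *Gm3776* have almost no windows that are unique on the stricter count.

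The members sit at 3 places in the genome. *Gsta3* lies alone on chromosome 1, at chr1:21230670-21255442. *Gsta4* (chr9:78039773-78057155), *Gsta1* (chr9:78078463-78090491) and *Gsta2* (chr9:78178825-78203595, minus strand) lie within 163823 bases of chromosome 9, with 21307 bases between the end of *Gsta4* and the start of *Gsta1*. The mu genes form 1 cluster of 149074 bases on chromosome 3, in the order *Gstm5* (chr3:107698739-107701604), *Gstm7*, *Gstm6* (chr3:107741765-107746667), *Gstm3* (chr3:107745251-107772201), *Gstm2* (chr3:107784620-107789371), *Gstm1* (chr3:107815173-107820891) and *Gstm4* (chr3:107843326-107847812), all on the minus strand except *Gstm5*. Annotated exons of *Gstm6* and *Gstm3* overlap by 82 bases on the same strand, 4.12% of the exon bases of *Gstm6*. An opposite-strand gene covers 13.9% of the exon bases of *Gstm5*, and whether reads were counted by strand is not given in the sources used here.

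In wild type epithelium the family was dominated by a few members. Levels per transcript length are given as RPKM, computed here from the normalized counts, the length of one annotated transcript and the library size. *Gstm1*, a major mu enzyme of liver and gut, was at 211 ± 17.1 RPKM (SD, n = 3), above every other member in every library. *Gstm5* (161 ± 21.9 RPKM), *Gsta4* (145 ± 6.16 RPKM) and *Gstm2* (134 ± 8.20 RPKM) followed, and neighbours in this order overlapped between libraries. *Gstm3* (38.3 ± 5.51 RPKM), *Gstm4* (17.4 ± 1.94 RPKM) and *Gsta3* (8.28 ± 1.36 RPKM) came next without overlap between neighbours. The lowest were *Gstm6* (2.09 ± 0.742 RPKM) and *Gsta2* (1.73 ± 0.361 RPKM), which overlapped, and *Gsta1* (0.604 ± 0.302 RPKM). As *Gsta1* and *Gsta2* have few windows that are unique with up to 2 mismatches, their place in the order is uncertain. *Gstm1*, *Gstm2* and *Gstm3* can also lose reads, with 43.7%, 34.4% and 57.3% of windows unique at that tolerance, against 100% for *Gstm5* and *Gsta4*. Counting identical copies only, the shares were 86.2%, 70.9% and 82.4%, so the loss can be smaller than the first shares imply. The RPKM of *Gstm1*, *Gstm2* and *Gstm3* may therefore be too low in both genotypes, and the order of *Gstm5*, *Gsta4* and *Gstm2* is not secure.

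The order differed in mutant epithelium at 2 genes. *Gsta4*, the third by mean in wild type, was the sixth in mutant at 16.9 ± 1.89 RPKM, below *Gstm4* (19.0 ± 0.540 RPKM) in every mutant library. *Gstm6* was at 10.9 ± 1.54 RPKM and stood above *Gsta3* (4.77 ± 0.493 RPKM), which it lay below in wild type. *Gstm1* (191 ± 6.31 RPKM) and *Gstm5* (178 ± 9.90 RPKM) remained the members with the highest means and overlapped between libraries. The family as a whole took between 804.3 and 880 CPM, counts scaled to library size, of a wild type library and between 655 and 713 CPM of a mutant library.

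**Figure D2:**
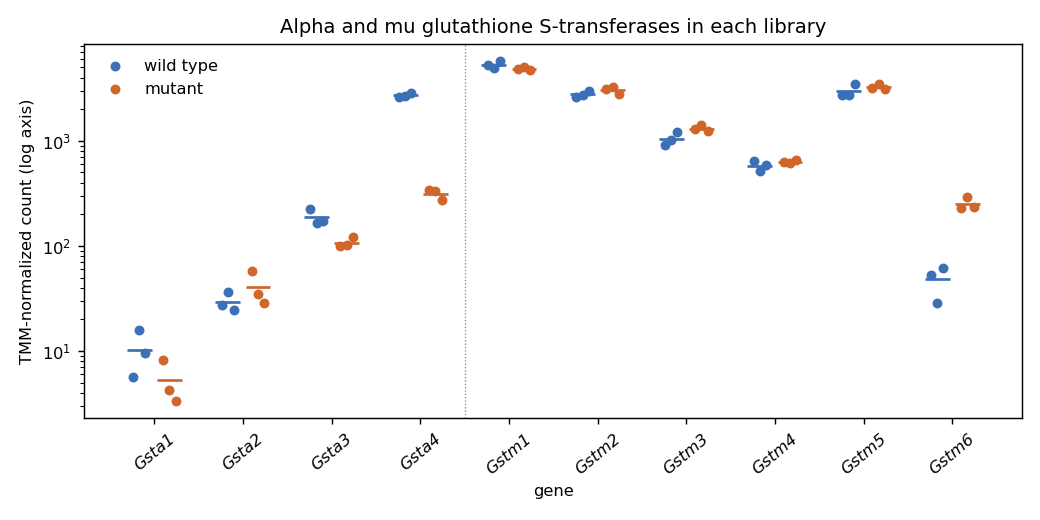
Normalized counts (y axis, log scale) of the 10 genes (x axis), with 1 point for each of the 3 wild type and 3 mutant libraries and a bar at each group mean. *Gsta4* lies between 2605 and 2830 for wild type and between 274 and 339 for mutant, *Gstm6* between 28.9 and 61.8 and between 229 and 293, and the other members lie much closer together.

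*Gsta4*, the alpha enzyme with high activity on 4-hydroxynonenal, had the largest difference between genotypes in the family. Its normalized counts were 2605, 2677 and 2830 in wild type libraries 1 to 3 and 339, 332 and 274 in mutant libraries 1 to 3. The lowest wild type library was well above the highest mutant library. Means were 2704 ± 115 for wild type and 315 ± 35.4 for mutant, a log2 fold change of -3.10 (SE 0.11), or 8.57-fold lower. The summed raw counts, 8627 in wild type and 887 in mutant, give a mutant level of 11.7% of wild type after scaling (95% exact interval 10.9% to 12.5%, which covers counting error only). *Gsta4* was called lower here and in all 16 alternative analyses, where its log2 fold change lay between -3.20 and -3.01. These analyses draw on the same libraries, and some change only the criteria of the call. As the family was chosen on this contrast, they describe how the value depends on processing and add no independent support.

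*Gsta3*, an alpha enzyme known in mouse for detoxifying aflatoxin epoxide, was also below wild type in each mutant library. The normalized counts were 222, 165 and 174 in wild type and 100.4, 102 and 121 in mutant, so the groups did not overlap. Wild type averaged 187 ± 30.8 and mutant 108 ± 11.1, with a log2 fold change of -0.80 (SE 0.23) that did not meet the call. It met the call in 2 of the 16 alternative analyses, the correction for transcript length (log2 fold change -0.87) and the looser adjusted p of 0.05.

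*Gsta2* and *Gsta1*, inducible alpha enzymes of liver and gut, were detected at low levels. *Gsta2* had raw counts of 29, 39 and 26 in wild type and 56, 33 and 26 in mutant, and the groups overlapped (log2 fold change 0.47, SE 0.47). That value rested in large part on mutant library 1 and was 0.12 without it. *Gsta1* had raw counts of 6, 17 and 10 in wild type and 8, 4 and 3 in mutant, also overlapping, and was too low to enter the test. Summed with their copies *Gm3776* and *Gm10639*, to which their reads could belong, the counts were 48.2 ± 16.4 in wild type and 49.8 ± 16.8 in mutant (log2 ratio 0.05, SE 0.38).

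The alpha class sum followed *Gsta4*. It was 2860, 2894 and 3039 normalized counts in wild type and 505, 474 and 427 in mutant, without overlap. The log2 ratio was -2.64 (SE 0.08), so that the mutant class stood at 16.0% of wild type. *Gsta4* made up 92.2 ± 1.06% of alpha class counts in wild type and 67.1 ± 2.93% in mutant, while *Gsta3* made up 6.40 ± 1.19% and 23.2 ± 4.42%. Without *Gsta4* the remaining 3 genes summed to 227 ± 24.9 in wild type and 154 ± 12.6 in mutant (log2 ratio -0.56, SE 0.11).

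**Figure D3:**
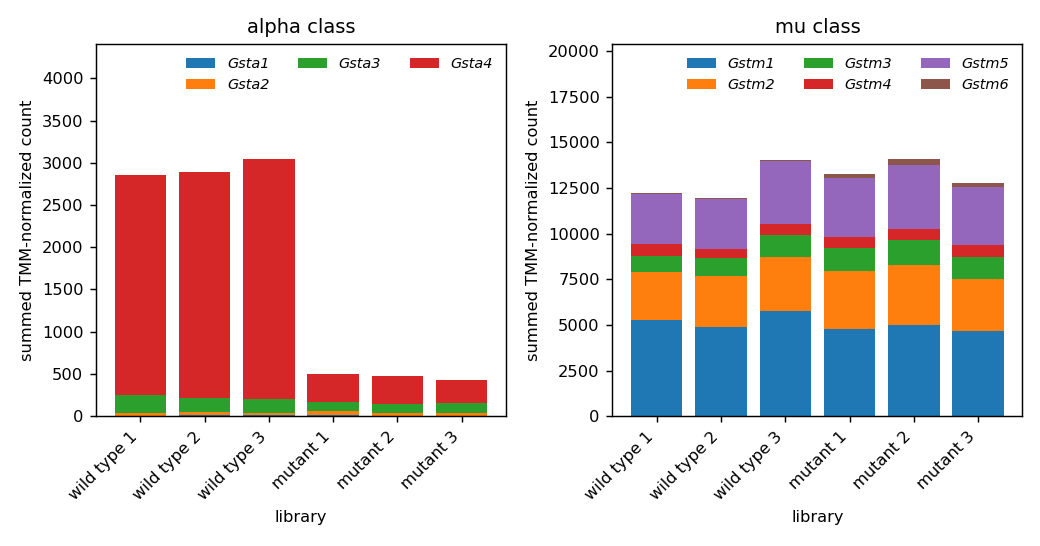
Summed normalized counts (y axis) in each of the 6 libraries (x axis), stacked by gene, for the alpha class on the left and the mu class on the right. The alpha sum runs from 2860 to 3039 for wild type and from 427 to 505 for mutant, with *Gsta4* as the main component, while the mu sum overlaps between genotypes and *Gstm6* is a thin layer of it.

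*Gstm6*, a mu class gene of low expression in wild type, differed in the opposite direction. Its raw counts were 57, 31 and 65 in wild type and 221, 275 and 212 in mutant, and its normalized counts 53.5, 28.9 and 61.8 against 229, 293 and 235. Each mutant library was above each wild type library. Wild type averaged 48.0 ± 17.1 and mutant 252 ± 35.4, a log2 fold change of 2.39 (SE 0.28), or 5.24-fold higher. The ratio of summed counts, 708 to 153, was 5.26 after scaling (95% exact interval 4.41 to 6.30, counting error only). *Gstm6* was called higher here and in 15 of 16 alternative analyses, with a log2 fold change between 2.13 and 2.62. The exception asked for an RPKM of at least 50, which *Gstm6* does not reach. Its wild type mean was under 50 normalized counts, so it met the count criterion through the mutant libraries. The alternatives reuse the same libraries, and the family was chosen on this contrast, so the repeated call adds no support of its own.

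The other mu genes lay close to wild type, and none was called in any analysis. *Gstm1* had normalized counts of 5259, 4897 and 5754 in wild type and 4793, 4991 and 4677 in mutant, which overlapped (log2 fold change -0.14, SE 0.07). *Gstm2*, another mu enzyme of broad expression, had 2787 ± 170.3 in wild type and 3075 ± 229.9 in mutant (0.14, SE 0.08), also overlapping. *Gstm5*, the mu gene farthest in sequence from the rest and best known from brain and testis, had 2743, 2732 and 3439 in wild type and 3206, 3487 and 3144 in mutant, with overlap (0.14, SE 0.09). *Gstm4* was the closest between genotypes, at 581 ± 64.5 and 633 ± 18.0 normalized counts with overlap (0.12, SE 0.13).

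*Gstm3*, which lies next to *Gstm6* and shares exon bases with it, was the only one of these 5 without overlap between genotypes. Its normalized counts were 911, 1009.6 and 1205 in wild type and 1283, 1401 and 1237 in mutant. Every mutant library was above every wild type library, by a narrow margin, and the log2 fold change was 0.33 (SE 0.11), below the 0.5 that the call requires. It lay between 0.22 and 0.46 over the alternative analyses.

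The mu class sum was 12239, 11943 and 14014 normalized counts in wild type and 13275, 14059 and 12766 in mutant. The groups overlapped, and the log2 ratio was 0.07 (SE 0.08), or -0.03 when libraries were scaled by total count alone. *Gstm6* made up 0.373 ± 0.114% of mu class counts in wild type and 1.88 ± 0.184% in mutant. *Gstm1*, *Gstm2* and *Gstm3*, the mu members with the fewest unique windows, summed to 9132 ± 692 and 9203 ± 462 (log2 ratio 0.01, SE 0.07). That sum does not recover reads shared with places outside these genes. Alpha and mu together summed to 15663 ± 1211 in wild type and 13835 ± 672 in mutant, 88.3% of wild type, without overlap.

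Counted over the family, 1 of the 9 tested members was called higher, beside 2.78% of all tested genes, and 1 was called lower, beside 5.83%. The groups did not overlap with mutant above for *Gstm3* and *Gstm6*, 2 of 9 beside 20.8% of all tested genes, and with mutant below for *Gsta3* and *Gsta4*, 2 of 9 beside 22.2%. The members were chosen on this contrast, so nothing is read from these counts. Of the tested members that were not called, *Gsta3* at -0.80 and *Gsta2* at 0.47 lay nearest in log2 fold change to the called pair.

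**Figure D4:**
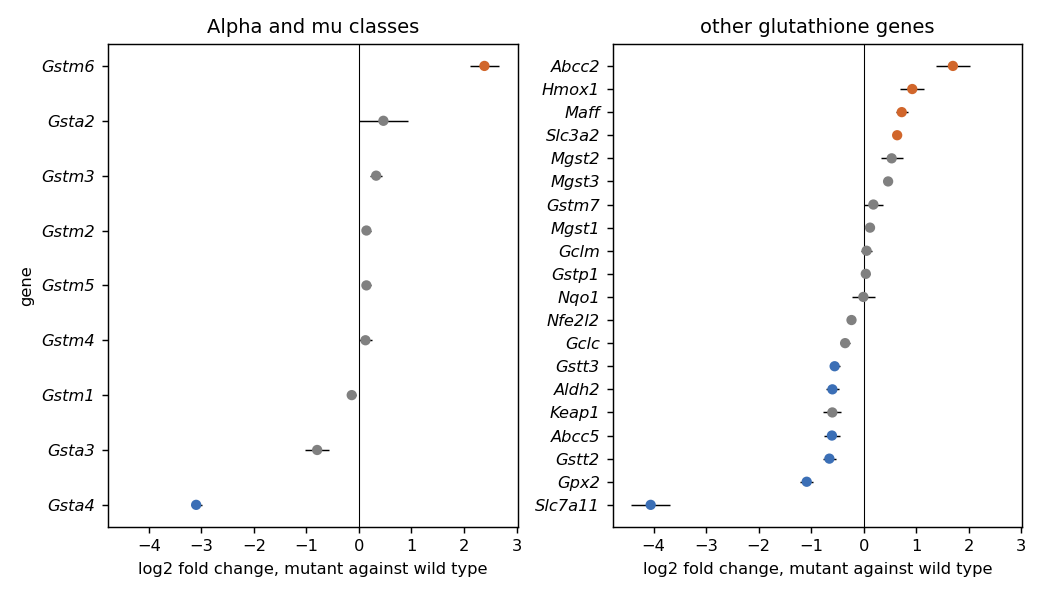
Log2 fold change of mutant against wild type (x axis) with its SE as a horizontal line, for the 9 tested alpha and mu genes on the left and 20 other genes of glutathione metabolism on the right (y axis). Orange points were called higher, blue points lower and grey points were not called. On the left *Gsta4* at -3.10 and *Gstm6* at 2.39 stand away from the rest, and on the right *Slc7a11* at -4.06 does.

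The promoters of the genes that differ were read for motifs. A promoter was taken as the 250 bases before a RefSeq start site (table of build GRCm38.p6), and each was matched to mm9 at a single place. Of the 10 members, 9 had an entry, with 13 windows in all, and *Gsta4* is not among them. Shown are the *Gstm6* window nearest its annotated mm9 start (chr3:107746653-107746902, minus strand) and that of its neighbour *Gstm3* (chr3:107772093-107772342, minus strand). Both reach into the annotated gene. They were chosen because the genes overlap and yet differed in size of change. Capitals mark a motif match.
Gstm6: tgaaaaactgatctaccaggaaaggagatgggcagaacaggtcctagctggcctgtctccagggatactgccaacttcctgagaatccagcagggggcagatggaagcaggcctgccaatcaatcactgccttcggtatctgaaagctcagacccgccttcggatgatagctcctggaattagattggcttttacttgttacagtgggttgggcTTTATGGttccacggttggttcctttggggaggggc
Gstm3: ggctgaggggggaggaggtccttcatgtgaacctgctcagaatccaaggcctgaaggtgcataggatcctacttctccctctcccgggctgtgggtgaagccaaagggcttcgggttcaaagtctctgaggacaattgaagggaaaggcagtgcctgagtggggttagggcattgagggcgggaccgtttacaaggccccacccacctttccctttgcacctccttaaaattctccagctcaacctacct
The *Gstm6* window held 1 match to the CDX letters TTTATNG, 36 bases before the start, and the *Gstm3* window held no match to any motif searched.

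Across the 13 windows, both strands were searched for the antioxidant response element core TGACNNNGC, which NRF2 binds, and for short forms of the TCF/LEF (CTTTGNT), HNF1 (GTTAAT), CDX (TTTATNG) and TATA box (TATAAA) motifs. The antioxidant core was found in the windows of *Gsta3* and *Gstm5*, at 121 and 42 bases before the start, and in 10.2% of all 32851 promoters. A TCF/LEF match was found in 1 window, a start of *Gstm6* farther upstream within *Gstm3*, at 175 bases before it, and in 16.0% of all promoters. The letters there are CTTTGGT, which the short form accepts because it allows any base at N. HNF1 letters were in the *Gsta3* window (6.43% of all promoters). CDX letters were in 1 of the *Gstm6* windows and in that of *Gsta2* (9.81%). A TATA box was in 1 of the *Gstm1* windows and in *Gsta2*, where it overlaps the CDX match (12.4%). A match is a description of letters and shows no binding.

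The nearest tested genes outside each locus were compared with their neighbours in the family. Next to the alpha cluster, *C920006O11Rik*, 13087 bases before *Gsta4*, was at 41.7 ± 15.0 normalized counts in wild type and 6.06 ± 2.495 in mutant (log2 fold change -2.76, SE 0.62, adjusted p = 0.0041 in edgeR's test), and was not called because its mean is under 50. On the other side of that cluster *Ddx43* gave a log2 fold change of 0.14 (SE 0.57). Next to the mu cluster, *Eps8l3*, 2922 bases before *Gstm5*, rose from 1184 ± 97.3 to 1930.5 ± 253 (0.71, SE 0.11, adjusted p = 2.1e-04 in edgeR's test). *Ampd2*, 29168 bases beyond *Gstm4*, fell from 1210.4 ± 211 to 597 ± 90.8 (-1.02, SE 0.14, adjusted p = 1.1e-04 in edgeR's test). The tested genes nearest *Gsta3* lay near 0. *Tmem14a*, 10422 bases before it, gave -0.02 (SE 0.20). *Ogfrl1* gave 0.01 (SE 0.16) but lies 2117821 bases beyond it, so it says little about the surroundings of *Gsta3*.

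Genes with profiles close to those of the called members were listed by the Euclidean distance of log2 CPM centred over the 6 libraries. For *Gsta4* the nearest were *Abhd14b* (distance 0.196), *Gm1821* (0.248), *Cap1* (0.452) and *4930481A15Rik* (0.624). *Abhd14b* was at 427 ± 39.1 normalized counts in wild type and 51.6 ± 4.99 in mutant, and *Cap1* at 2785 ± 54.3 and 389 ± 47.8, while *4930481A15Rik* was at 12.2 ± 3.16 in wild type and at 0 in every mutant library. Its fitted log2 fold change was -6.62 (SE 1.47), against -3.10 for *Gsta4*. The log2 CPM carry a small added count, which shrinks the differences of genes near 0 counts. For *Gstm6* the nearest were *Naip5* (0.451), *Fah* (0.709), *Aldh1a1* (0.752) and *A930015D03Rik* (0.789). *Naip5* was at 65.9 ± 19.6 in wild type and 316 ± 24.7 in mutant. As the distance uses the genotype difference itself, these profiles carry no test.

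The rest of glutathione metabolism was read from 6 lists of 96 genes, of which 95 are listed in the files and 80 were tested. Of these, 4 (5.00%) were called higher in mutant and 6 (7.50%) lower, beside 2.78% and 5.83% of all tested genes. The lists were chosen with earlier results of these data known, so these shares and the p-values of named genes are no independent comparison. The median log2 fold change was 0.10 over the lists and -0.04 over all tested genes, with 52 genes positive and 28 negative. An unadjusted p under 0.05, given for lists with 0 calls in a direction, was reached by 40.3% of all tested genes, 18.6% with a positive and 21.6% with a negative log2 fold change.

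Among glutathione S-transferases outside the alpha and mu members, 2 of 15 tested genes were called lower and 0 called higher by edgeR and by DESeq2, around a median log2 fold change of 0.12. At an unadjusted p under 0.05 there were 4 genes with a positive and 3 with a negative value. Both genes called lower were of the theta class, which acts on small halogenated compounds. The normalized counts of *Gstt2* fell from 1172 ± 137 to 744 ± 77.4 (-0.66 on the log2 scale, SE 0.12, adjusted p = 9.8e-04 in edgeR's test). *Gstt3* fell from 1715 ± 116 to 1167 ± 97.9 (-0.56, SE 0.10, adjusted p = 7.4e-04 in edgeR's test), and lost the call with the transcript length correction (-0.48). Exons of another annotated gene cover 19.9% of its exon bases on the same strand. *Gstp1*, the pi class enzyme, had 4845 ± 426 and 4974 ± 86.6 (0.04, SE 0.08), a value that turned to -0.07 with scaling by total count and to -0.11 with the length correction. *Gstm7*, the mu gene left out of the family rule, had 323 ± 53.3 and 367 ± 58.5 with overlap (0.18, SE 0.18). The membrane-bound *Mgst1* gave 0.12 (SE 0.07) and *Mgst2* 0.53 (SE 0.21, adjusted p = 0.066 in edgeR's test). *Mgst3* gave 0.46 (SE 0.08, adjusted p = 7.6e-04 in edgeR's test), under the fold threshold, and passed it without wild type library 3 (0.56) or mutant library 3 (0.50).

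Of 14 tested genes for glutathione synthesis, breakdown and cysteine supply, 1 was lower and 1 higher, and these encode the partners of 1 transporter. *Slc7a11*, the cystine-transporting subunit of system xc-, had 154, 147 and 148 normalized counts in wild type and 12.4, 8.52 and 5.53 in mutant. All mutant libraries were far below all wild type libraries, with a log2 fold change of -4.06 (SE 0.37, adjusted p = 1.3e-06 in edgeR's test), and the summed counts of 478 and 25 gave 5.94% of wild type (95% exact interval 3.81% to 8.88%). With a mutant mean of 8.83, *Slc7a11* met the count criterion through the wild type libraries. *Slc3a2*, the heavy chain that also serves other amino acid transporters, rose from 4995 ± 417 to 7757 ± 172 (0.64, SE 0.07, adjusted p = 1.6e-05 in edgeR's test). The subunits of glutamate-cysteine ligase, the first enzyme of glutathione synthesis, were not called. *Gclc* had 1269 ± 24.02 and 992 ± 92.6 (-0.36, SE 0.10, adjusted p = 0.017 in edgeR's test), and *Gclm* 919 ± 4.76 and 954 ± 17.1 (0.05, SE 0.10). With the length correction these values were -0.12 and 0.31, and *Gclm* was -0.05 with scaling by total count.

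Of 13 tested peroxidases, reductases, glutaredoxins and glyoxalases, edgeR called 1 lower and 0 higher, as did DESeq2, around a median log2 fold change of 0.23. At an unadjusted p under 0.05 stood 8 genes with a positive and 2 with a negative log2 fold change. The call was *Gpx2*, the glutathione peroxidase of the gut epithelium. Its normalized counts were 1203, 1211 and 1476 in wild type and 564, 689 and 577 in mutant, without overlap (-1.09, SE 0.12, adjusted p = 1.2e-05 in edgeR's test).

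Of 6 tested exporters of glutathione conjugates, 1 was higher and 1 lower. The median log2 fold change was -0.40, with 1 gene positive and 5 negative. *Abcc2*, the apical conjugate pump MRP2, had 58.1, 44.7 and 35.2 in wild type and 120, 207 and 122 in mutant, without overlap (1.70, SE 0.32, adjusted p = 0.0011 in edgeR's test). Its wild type mean of 46.0 was under 50, so it met the count criterion through the mutant libraries. Without mutant library 2 the log2 fold change was 1.39 and the call was lost (adjusted p = 0.013 in edgeR's test). *Abcc5* fell from 527 ± 62.4 to 346 ± 53.8 (-0.61, SE 0.16, adjusted p = 0.0098 in edgeR's test), but lost the call whichever library was left out, with values between -0.71 and -0.49 and an adjusted p between 0.013 and 0.053, and with the length correction (-0.39).

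Of 24 tested genes of NRF2, its partners and its usual targets, edgeR called 2 higher and 0 lower and DESeq2 3 and 1, around a median log2 fold change of 0.10. With a positive value 7 genes had an unadjusted p under 0.05 and with a negative value 4, beside the 40.3% of all tested genes at that p. *Maff*, a small MAF partner, rose from 597 ± 30.6 to 985 ± 62.0 (0.72, SE 0.11, adjusted p = 2.6e-04 in edgeR's test). *Hmox1*, heme oxygenase 1, rose from 131 ± 27.7 to 248 ± 51.4 (0.92, SE 0.22, adjusted p = 0.0066 in edgeR's test). It lost the call without wild type library 1 or 3 or without mutant library 1 or 2, at log2 fold changes of 0.80, 0.90, 0.98 and 0.74, and with scaling by total count (0.81). *Nfe2l2*, which encodes NRF2, had 4538 ± 137 and 3857 ± 193 (-0.23, SE 0.07, adjusted p = 0.022 in edgeR's test). *Keap1*, its inhibitor, had 657 ± 162 and 434 ± 31.8 (-0.60, SE 0.17, adjusted p = 0.015 in edgeR's test) and was called lower without wild type library 3 (-0.77). With the length correction *Nfe2l2* gave -0.08 and *Keap1* -0.32. *Nqo1*, a target often used as a readout of NRF2, had 162 ± 20.05 and 161 ± 35.3, and its log2 fold change of -0.01 (SE 0.23) turned positive under 6 of the alternatives, up to 0.10.

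Of 8 other tested enzymes that clear lipid aldehydes, the substrates that GSTA4 shares, edgeR called 1 lower and 0 higher, as did DESeq2, around a median log2 fold change of 0.12. An unadjusted p under 0.05 was found for 1 gene with a positive and 2 with a negative value. *Aldh2*, the mitochondrial aldehyde dehydrogenase, fell from 1023 ± 171 to 676 ± 62.4 (-0.60, SE 0.13, adjusted p = 0.0034 in edgeR's test). It lost the call without wild type library 2 (-0.45), mutant library 1 (-0.56) or mutant library 2 (-0.56), and with the length correction (-0.33).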

How the data were processed

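RNA-sequencing counts of 6 libraries were used, 3 mutant and 3 wild type. The authors made cDNA from 500 sorted cells over 15 PCR cycles, sequenced 84-base reads, aligned them to mm9 with STAR 2.5.2b and kept reads with a single place, which featureCounts 1.5.1 assigned to genes of a UCSC model. The deposited values are raw counts per gene, not normalized, with 18216537 to 20397278 per library. Strand setting, sex, litter and strain background of the embryos are not given in the sources used here. Reads carry no molecular identifiers, so exact intervals (95%) cover counting error only. The design text calls the libraries biological replicates, and the labels do not name the embryos behind each.

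Counts went into edgeR 4.0.16 under R 4.3.3 (TMM normalization, filterByExpr, quasi-likelihood test on genotype, Benjamini-Hochberg adjustment over all 12501 tested genes). Normalized counts are scaled to the mean effective library size, and RPKM uses the annotated transcript with the longest coding sequence. A call required an adjusted p under 0.01, a log2 fold change of at least 0.5 in either direction and 50 or more normalized counts on average, the last in place of the RPKM criterion in the study's text. Sums of members were formed per library, with the SE of the log2 ratio from the spread of the log2 sums between libraries. Alternatives were RLE scaling, library size alone, DESeq2 1.42.0, no filter, a filter at a mean count of 50, a loess correction for transcript length (span 0.5), a replicate block, other criteria of the call and each library left out.

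The family, the gene lists and the comparisons were chosen with earlier results of these data known. Named outside the family are the called genes of each list (up to 4 in each direction), a fixed set of well-known glutathione genes, the 4 nearest profiles of each called member and the nearest tested gene on each side of a locus. Positions, transcripts and overlaps come from the GENCODE annotation of mm9, which names 95.0% of tested genes, and promoters from RefSeq. Python 3.11.15 and matplotlib 3.10.9 were used.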

Additional observations from a re-analysis of the deposited data

How the results depend on the processing

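The alternatives gave the following counts of all genes called higher and lower, beside 348 and 729. RLE scaling gave 387 and 690, library size alone 200 and 957, DESeq2 423 and 832, no filter 371 and 895, and a filter at a mean count of 50 gave 337 and 833. The length correction gave 699 and 387, which raised the share of higher calls from 32.3% to 64.4%, and library size alone lowered it to 17.3%. The median log2 fold change of all genes was -0.04 in the analysis as reported, -0.15 with library size alone and 0.08 with the length correction. Among call criteria, an RPKM of at least 50 gave 130 and 34, a log2 fold change of at least 1 gave 85 and 284, and an adjusted p under 0.05 gave 436 and 1178. Leaving out each library gave 260 to 516 higher and 405 to 867 lower, with the fewest lower without wild type library 1 (405), wild type library 2 (406) or mutant library 2 (463). The replicate block gave 339 and 691. Libraries with the same number did not deviate together (correlations 0.01, -0.04 and -0.02), so the numbers were not taken as pairs. With the block the alpha and mu sums were -2.65 and 0.07, and among the named genes only *Abcc5* lost its call (adjusted p = 0.011, edgeR).

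For the glutathione genes outside the family, 4 higher and 6 lower became 6 higher and 3 lower with the length correction, 1 higher and 0 lower with the RPKM criterion, 1 higher and 2 lower at a log2 fold change of 1, and 2 to 6 higher and 4 to 7 lower when each library was left out (2 higher without mutant library 2). The alpha sum was -2.75 with library size alone, -2.74 with the length correction and -2.70 to -2.58 with each library left out. The mu sum was -0.034 with library size alone, 0.01 with the length correction and 0.03 to 0.16 with each library left out. Values near 0 changed sign. *Nqo1* gave 0.015 with RLE and DESeq2, and 0.049, 0.040, 0.10 and 0.058 without wild type libraries 1 and 2 and mutant libraries 1 and 3, with a range of -0.20 to 0.10 over libraries left out. *Gstp1* gave -0.066 with library size alone, -0.11 with the length correction and -0.019 without wild type library 1 (range -0.019 to 0.12), and *Gclm* -0.052 with library size alone. *Tmem14a* gave 0.0062 with RLE and DESeq2, and 0.11 without wild type library 2 or mutant library 1 (range -0.16 to 0.11). *Ogfrl1* gave -0.092 with library size alone, -0.023 without wild type library 1 and -0.038 without mutant library 1 (range -0.038 to 0.072), and *Ddx43* -0.12 without wild type library 1 and -0.17 without mutant library 2 (range -0.17 to 0.37). The cause of these changes was not tested. Of 320 alternative values for 20 named pathway genes, 267 kept their direction and their side of the call, 36 lost the call, 7 gained it and 10 changed sign. *Keap1* gained the call with DESeq2 (-0.58), no filter, a mean count of 50 and an adjusted p under 0.05, and moved to -0.32 with the length correction. That correction also moved *Gclc* to -0.12, *Gclm* to 0.31, *Nfe2l2* to -0.08 and *Mgst2* to 0.34. Members with few unique windows (*Gsta1*, *Gsta2* and, less so, *Gstm1*, *Gstm2* and *Gstm3*) are limited by mapping. Those with under 50 normalized counts in a group (*Gsta1*, *Gsta2* and *Gstm6*) are limited by depth. With 3 libraries in each group, a change within the spread between libraries was not detectable.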
